A study of Mus musculus with 6 samples.

Results

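The genes described here are 10 chemokine ligands, 9 of the CC family (*Ccl2*, *Ccl3*, *Ccl5*, *Ccl7*, *Ccl17*, *Ccl20*, *Ccl22*, *Ccl25* and *Ccl28*) and *Cx3cl1*, which encodes fractalkine. They were chosen by gene symbol, with earlier results of these data known. All 10 were present among the 24982 genes of the 6 gene coverage tables. RNA-seq compared 3 libraries of KSFM-Ca2+ cells with 3 libraries of DKSFM cells, both murine keratinocyte lines from neonatal skin of the C57BL/6 strain. The KSFM-Ca2+ cells were established and kept in a serum-free keratinocyte medium low in calcium, and the DKSFM cells descend from them after adaptation to a defined serum-free medium with more calcium. Neither line was treated. By the description of the series each medium is represented by 1 line, so that the medium, the adaptation and the history of the line cannot be told apart. What the replicates of a line shared, down to the culture or the RNA, is not given in the sources used here, so the p-values measure only the spread between these libraries, which may be technical.

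Chemokines are small secreted proteins that guide leukocytes along concentration gradients by binding G protein-coupled receptors on their surface. CC ligands made by keratinocytes recruit monocytes, dendritic cells and T cells to the skin, and their genes are classic targets of the transcription factor NF-κB downstream of interleukin 1 and tumour necrosis factor. Fractalkine differs in being made as a membrane-anchored protein, which metalloproteases can release from the cell surface.

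The value for each gene was the mean read coverage per base, written to 1 decimal, so that 0.1 is the smallest value above 0. How it was computed is not explained, so levels of different genes can be compared only roughly. As a measure of depth, the coverage of all genes added up to 1601676, 1238411 and 1057750.5 in KSFM-Ca2+ replicates 1 to 3 and to 1174348, 1239438 and 1170675 in DKSFM replicates 1 to 3. Coverage was scaled between libraries by a trimmed mean of M values, and this normalized coverage is the level given for every gene unless a listed, unscaled value is named. Fold changes are DKSFM over KSFM-Ca2+ on the log2(normalized coverage + 0.1) scale, which understates the change of genes with low coverage. They were tested with limma over the 12409 genes that reached a normalized coverage of 0.5 in at least 3 libraries, with p-values adjusted over these genes. A gene was called at an adjusted p under 0.01 and a difference of at least 2-fold.

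The keratinocyte label was checked against 9 marker genes before the ligands were read. All 9 passed the filter, and *Krt14*, a keratin of basal keratinocytes, was the most abundant of them, at 11975 ± 225 in the KSFM-Ca2+ libraries and 29719 ± 1517 in the DKSFM libraries (mean ± SD, n = 3). The marker set summed to 20773, 21121 and 20742 in the KSFM-Ca2+ libraries and to 49846, 46124 and 50321 in the DKSFM libraries. Among the markers, *Perp*, *Krt14*, *Dsp* and *Krt5* were called higher in the DKSFM cells, with log2 fold changes of 1.62, 1.31, 1.27 and 1.25, that is 4 of 9 where 13.2% of all tested genes were called higher. *Itgb4* and *Cdh1* were lower in every DKSFM library by less than 2-fold, with log2 fold changes of -0.74 and -0.13 (adjusted p = 4.43e-07 and 0.00343 in limma). Both lines therefore carried the keratinocyte markers, at unequal levels.

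Together the 10 ligands had a summed normalized coverage of 372, 371 and 425 in the KSFM-Ca2+ libraries and of 7.96, 8.89 and 11.7 in the DKSFM libraries. Almost all of the KSFM-Ca2+ sum came from a pair of genes, *Ccl2* with 66.7% to 69.2% of it and *Ccl20* with 26.7% to 28.4%. In the DKSFM libraries *Ccl25* held the largest share, 56.0% to 64.0%, while *Ccl2* with 11.2% to 18.7% and *Cx3cl1* with 10.9% to 15.7% overlapped in their shares. The leading ligand thus differed between the lines as well as the total. In bulk RNA a lower level can come from fewer expressing cells or from less RNA per cell, and these cannot be told apart.

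Of the 10 ligands, 5 passed the filter on low values, 3 were above 0 but under the filter, and 2 were listed at 0 in every library. Among the 5 tested, *Ccl2*, *Ccl20* and *Ccl25* were called lower in the DKSFM cells, where 10.5% of all tested genes were, and *Cx3cl1* was called higher, where 13.2% of all tested genes were. In 4 of the 5 the libraries of the lines did not overlap, against 83.3% of all tested genes. Over the 5 the median log2 fold change was -1.47, beside -0.0012 over the whole set of tested genes. *Ccl20*, *Ccl5* and *Cx3cl1* reached the filter level in 3 libraries each, for *Ccl20* and *Cx3cl1* those of the line in which they were higher, so that these genes had to differ to be tested, and the counts over tested ligands support no statement on the group.

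**Figure D1:**
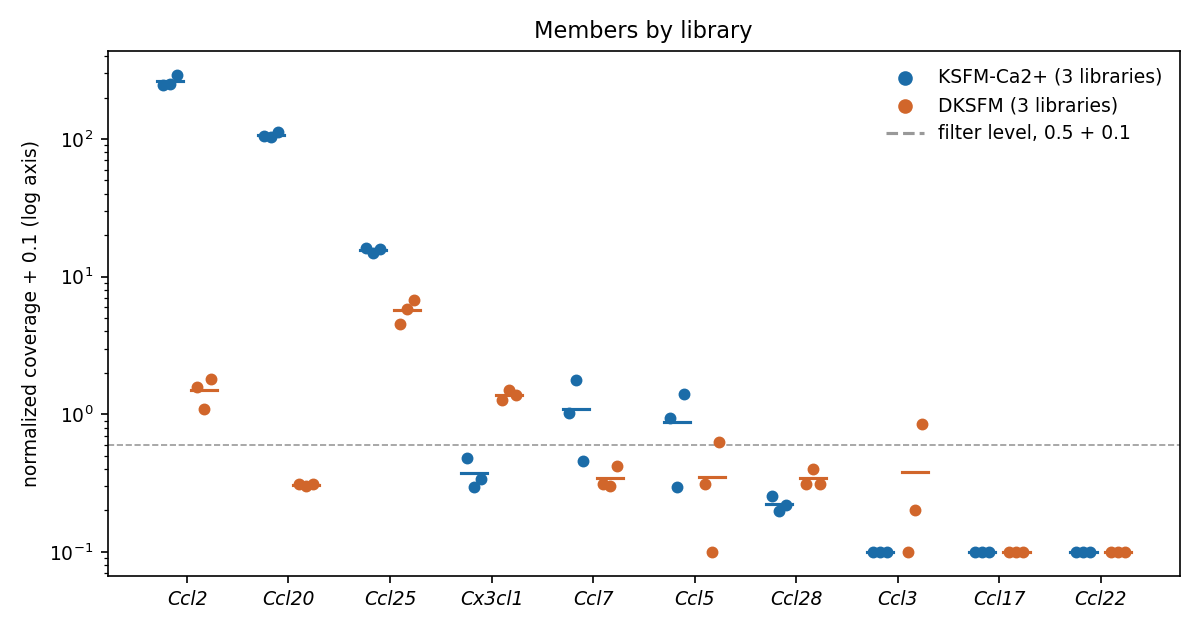
Normalized coverage + 0.1 on a log axis for the 10 ligands in the 3 KSFM-Ca2+ libraries (blue) and the 3 DKSFM libraries (orange), with a bar at each mean and a dashed line at the filter level of 0.5. *Ccl2* and *Ccl20* stand above 100 in every KSFM-Ca2+ library and at or below 1.70 in every DKSFM library, while *Cx3cl1* is the only tested ligand that is higher in DKSFM.

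*Ccl2*, a ligand of the receptor Ccr2 that attracts monocytes, was the most abundant of the ligands in the KSFM-Ca2+ cells. The gene lies on the plus strand of chromosome 11 between positions 82035571 and 82037453 (GENCODE M21, GRCm38). Its normalized coverage was 248, 251 and 294 in the KSFM-Ca2+ libraries and 1.49, 0.999 and 1.70 in the DKSFM libraries. All KSFM-Ca2+ libraries were high and all DKSFM libraries low, with no overlap. The mean fell from 265 ± 25.5 to 1.39 ± 0.358 (SD, n = 3), a ratio of 189.8, and the log2 fold change was -7.49 (SE 0.17, 95% interval -7.88 to -7.11, adjusted p = 6.41e-09 in limma). In the KSFM-Ca2+ cells this level lay above that of 93.0% of the tested genes, and in the DKSFM cells above that of 9.65%. *Ccl2* RNA was still seen in every DKSFM library, at 1.0 to 1.6 as listed.

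*Ccl7*, which encodes another monocyte attractant that binds Ccr2, starts 10.1 kb downstream of *Ccl2* on the same strand. Its normalized coverage was 0.915, 1.68 and 0.354 in the KSFM-Ca2+ libraries and 0.212, 0.20 and 0.318 in the DKSFM libraries. KSFM-Ca2+ replicates 1 and 2 were higher than the DKSFM libraries, but replicate 3 of each line was listed at the same value of 0.3, so that the lines were not separated at this rounding. *Ccl7* reached the filter level in 2 libraries only and was not tested in the full comparison. When 1 library was left out, the filter was also lowered to 2 libraries, which *Ccl7* could pass only through KSFM-Ca2+ replicates 1 and 2, so that it had to differ. With both changes it was called lower in the DKSFM cells without KSFM-Ca2+ replicate 3 (log2 fold change -2.00, adjusted p = 0.00140 in limma), and was not called without any 1 of the DKSFM replicates (adjusted p of 0.0322 to 0.0674). With all 6 libraries and no filter it was not called either (log2 fold change -1.46, adjusted p = 0.0251 in limma). In the KSFM-Ca2+ cells *Ccl2* thus stood far above its neighbour, with means of 265 and 0.983.

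*Ccl20* encodes the ligand of the receptor Ccr6 on Langerhans cell precursors and on T helper cells that make interleukin 17. At the pseudocount of 0.1 it showed the largest log2 fold change of the tested ligands. At a pseudocount of 1 that of *Ccl2* was larger, at -6.80 beside -6.48 for *Ccl20*. *Ccl20* lies on the plus strand of chromosome 1 between positions 83116766 and 83119167. Normalized coverage was 106, 103 and 113 in the KSFM-Ca2+ libraries and 0.212, 0.20 and 0.212 in the DKSFM libraries. The KSFM-Ca2+ libraries were close to each other and far above the DKSFM libraries, each of which was listed at 0.2. The log2 fold change was -8.44 (SE 0.08, 95% interval -8.62 to -8.27, adjusted p = 1.27e-10 in limma). The ratio of the means, 107 ± 5.37 against 0.208 ± 0.00712, was 515, and the rounding of the DKSFM values alone allows 412 to 687. The small SD of the DKSFM libraries comes from rounding to the same listed value, so the SE, interval and p-value above leave out their rounding error. That interval also includes the pseudocount and cannot be set beside the ratio of the means. *Ccl20* reached the filter level only in the KSFM-Ca2+ libraries, so it had to differ to be tested. A listed step of 0.1 corresponds to about 0.934 to 1.67 reads of 85 bases over the median and the longest annotated transcript of this gene, so its DKSFM level rests on a few reads per library.

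Promoter sequences came from a set of RefSeq promoters (GRCm38.p6), and the set used here held an entry for 7 of the 10 ligands. It held none for *Ccl2*, *Ccl5* and *Ccl7*, which does not mean that RefSeq lacks these genes. The 250 bases before each start were searched on both strands for the NF-κB consensus, for the AP-1 motif TGANTCA and for the TATA box TATAAA, and matches are in capitals. Over all 32841 windows of this length, the NF-κB consensus was found in 3.90%, the AP-1 motif in 6.75% and the TATA box in 12.4%. The windows of the ligands that were called are shown, since these carry the differences between the lines, and a match is a description of the letters only. That of *Ccl20* (chr1:83116516-83116765, plus strand) held 1 match to the NF-κB consensus, which lies on the minus strand and begins 80 bases before the start, and no match to either other motif.
Ccl20: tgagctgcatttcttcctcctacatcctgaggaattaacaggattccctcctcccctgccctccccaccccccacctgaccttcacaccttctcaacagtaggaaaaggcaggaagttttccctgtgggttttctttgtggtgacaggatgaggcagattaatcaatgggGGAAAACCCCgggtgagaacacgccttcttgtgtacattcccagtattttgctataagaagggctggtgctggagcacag

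*Ccl25* encodes a ligand of Ccr9 known for drawing T cells to the thymus and small intestine. Its level lay above that of 40.1% of the tested genes in the KSFM-Ca2+ cells and of 22.4% in the DKSFM cells. The KSFM-Ca2+ libraries had a normalized coverage of 16.1, 14.7 and 15.8, and the DKSFM libraries one of 4.46, 5.70 and 6.68. The KSFM-Ca2+ libraries were all higher, and the lowest of them was more than 2-fold above the highest DKSFM library. The means were 15.5 ± 0.713 and 5.61 ± 1.11 (SD, n = 3), a ratio of 2.77, with a log2 fold change of -1.47 (SE 0.13, 95% interval -1.78 to -1.16, adjusted p = 1.58e-05 in limma). When only the libraries whose tables are marked as combined, a word that is not explained, were compared, 1 of KSFM-Ca2+ and 3 of DKSFM, the log2 fold change was -1.50 and the adjusted p of 0.0117 missed the threshold. Across the other alternatives the adjusted p stayed between 2.74e-06 and 3.03e-04.

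*Ccl25* shares exon sequence with *Elavl1*, which encodes an RNA-binding protein and runs on the opposite strand. *Elavl1* had a normalized coverage of 27.6, 28.2 and 28.1 in the KSFM-Ca2+ libraries and of 20.1, 20.3 and 21.1 in the DKSFM libraries. It was also lower in every DKSFM library, by a log2 fold change of -0.45 (SE 0.04, adjusted p = 2.05e-05 in limma), less than the 2-fold needed for a call. The libraries were directional and were aligned with a first-strand setting, but how the coverage was then computed is not stated, so that the share of opposite-strand reads in the value of *Ccl25* was not tested. RefSeq gave 2 starts for *Ccl25*, and the coverage does not tell which was used. The window of the first (chr8:4324960-4325209, plus strand) lies within *Elavl1* and held no match to the 3 motifs, and that of the second (chr8:4349338-4349587, plus strand) held a TATA box that begins 16 bases before the start.
Ccl25 first start: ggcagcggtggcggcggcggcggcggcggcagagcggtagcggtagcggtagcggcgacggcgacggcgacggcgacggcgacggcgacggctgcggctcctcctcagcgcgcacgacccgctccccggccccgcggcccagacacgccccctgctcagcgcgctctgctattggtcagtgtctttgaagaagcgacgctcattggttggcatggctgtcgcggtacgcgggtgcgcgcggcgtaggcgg
Ccl25 second start: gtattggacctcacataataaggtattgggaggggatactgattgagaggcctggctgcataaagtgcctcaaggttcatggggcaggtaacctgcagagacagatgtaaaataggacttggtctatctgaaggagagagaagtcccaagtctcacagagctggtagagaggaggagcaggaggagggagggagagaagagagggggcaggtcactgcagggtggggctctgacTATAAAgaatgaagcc

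*Cx3cl1* was the only ligand of the 10 that was called higher in the DKSFM cells, at a low level. It lies on the plus strand of chromosome 8 between positions 94772009 and 94782427. Its normalized coverage was 0.381, 0.198 and 0.236 in the KSFM-Ca2+ libraries and 1.17, 1.40 and 1.27 in the DKSFM libraries. Every DKSFM library was above every KSFM-Ca2+ library. The means were 0.272 ± 0.0967 and 1.28 ± 0.116 (SD, n = 3), a ratio of 4.71 that rounding of the KSFM-Ca2+ values alone leaves between 3.99 and 5.74. *Cx3cl1* reached the filter level only in the DKSFM libraries, so it had to differ to be tested, and its p-value is no independent support. The log2 fold change was 1.92 (SE 0.24, 95% interval 1.36 to 2.48, adjusted p = 1.10e-04 in limma). It depended on the pseudocount, with 1.21 at a pseudocount of 0.5 and 0.84, under 2-fold, at a pseudocount of 1. The level in the DKSFM cells was above that of 8.80% of the tested genes, so the increase took place among the genes of lowest coverage. The window before the RefSeq start (chr8:94771930-94772179, plus strand), which reaches past the start that GENCODE gives for the gene, held a TATA box that begins 6 bases before the start and no other match.
Cx3cl1: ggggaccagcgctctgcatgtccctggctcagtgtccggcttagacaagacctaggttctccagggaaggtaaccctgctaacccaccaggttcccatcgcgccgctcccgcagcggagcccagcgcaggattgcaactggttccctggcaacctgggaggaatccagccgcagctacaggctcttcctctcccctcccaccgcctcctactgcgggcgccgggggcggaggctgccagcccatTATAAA

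*Ccl5*, which encodes a ligand that attracts T cells and monocytes, was tested and not called in the full comparison. Its normalized coverage was 0.838, 0.198 and 1.30 in the KSFM-Ca2+ libraries and 0.212, 0 and 0.530 in the DKSFM libraries. The lines overlapped, since KSFM-Ca2+ replicate 2 lay below DKSFM replicates 1 and 3. The log2 fold change was -1.44, and its 95% interval of -3.21 to 0.34 held both no change and a change of more than 2-fold (SE 0.77, adjusted p = 0.116 in limma). With a replicate block the same log2 fold change was called (adjusted p = 0.00412 in limma), though the replicate numbers do not pair the libraries. The value depended on the pseudocount, with -0.73 at 0.5 and -0.48 at 1, and on single libraries, from -2.08 without KSFM-Ca2+ replicate 2 to -0.72 without DKSFM replicate 2, with no call in any of these cases. It was -2.33, again without a call, with the combined libraries only.

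*Ccl28*, a mucosal and epithelial ligand of Ccr10 and Ccr3, was near the rounding step in all libraries. Normalized coverage was 0.152, 0.0989 and 0.118 in the KSFM-Ca2+ libraries and 0.212, 0.30 and 0.212 in the DKSFM libraries. The listed value was the same, 0.2, in KSFM-Ca2+ replicate 1 and in DKSFM replicates 1 and 3, so that no difference between the lines was resolved at this rounding. *Ccl3*, which encodes a monocyte attractant, was listed at 0 in every KSFM-Ca2+ library and at 0, 0.1 and 0.7 in the DKSFM libraries. Its signal thus came mainly from DKSFM replicate 3 (exact two-sided permutation p = 0.4, where 0.1 is the smallest that 3 against 3 allows). *Ccl17* and *Ccl22*, which encode the ligands of Ccr4 on skin-homing T cells, were listed at 0 in all 6 libraries. A mean coverage under 0.05 per base is listed as 0, so a lower level was not detectable. The windows of *Ccl3*, *Ccl17*, *Ccl22* and *Ccl28* held no match to the 3 motifs.

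**Figure D2:**
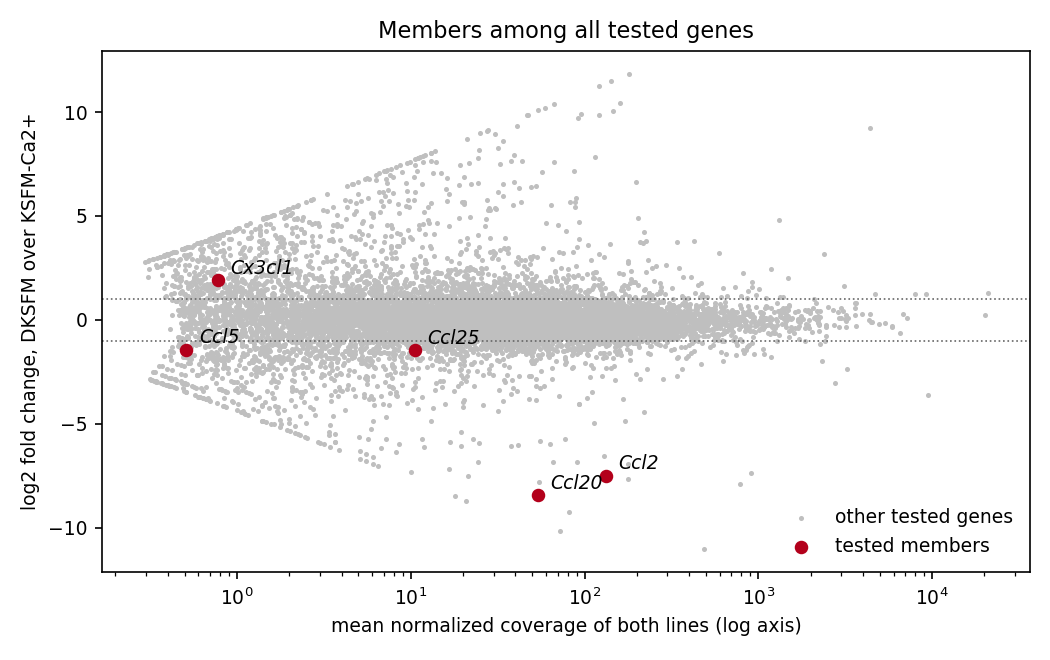
Log2 fold change (DKSFM over KSFM-Ca2+) against the mean normalized coverage of both lines on a log axis for the 12409 tested genes (grey) and the 5 tested ligands (red), with dotted lines at 2-fold. *Ccl20* (-8.44) and *Ccl2* (-7.49) lie near the lower edge at intermediate to high coverage, and *Cx3cl1* and *Ccl5* lie at the low end of coverage.

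Of 16 other CC and XC ligand genes, 9 were listed at 0 in every library and 6 stayed under the filter. Only *Ccl27a*, which encodes a Ccr10 ligand that keratinocytes make constitutively, was tested. It had a normalized coverage of 8.31, 8.60 and 6.73 in the KSFM-Ca2+ libraries and 42.0, 48.1 and 40.9 in the DKSFM libraries. All DKSFM libraries were several-fold higher, opposite to *Ccl2* and *Ccl20*. The log2 fold change was 2.46 (SE 0.10, 95% interval 2.22 to 2.70, adjusted p = 1.57e-07 in limma). This made *Ccl27a* the most abundant CC ligand of those examined in the DKSFM cells, with a mean of 43.7 ± 3.84 beside 5.61 for *Ccl25*. Its value is uncertain, because 29.9% of the 85-base windows of its transcripts also occur in *Ccl27b* or related predicted genes, and because its exons overlap *Il11ra1* on the opposite strand. *Il11ra1* was itself called higher in the DKSFM cells, from 2.43 ± 0.389 to 7.68 ± 1.17. No such shared windows were found for any of the 10 ligands.

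Receptors of these ligands were read next. *Ccr2*, *Ccr3*, *Ccr4*, *Ccr6*, *Ccr9*, *Ccr10* and *Cx3cr1* were listed at 0 in all 6 libraries. *Ccr1* was listed at 0.1 in each KSFM-Ca2+ library and at 0 in each DKSFM library, and *Ccr7* at 0.1 in 1 library of each line. Atypical receptors bind chemokines without the usual G protein signal. Of 5 of them, only *Ackr3*, which binds CXC ligands, was tested, with 15.4 ± 1.58 in the KSFM-Ca2+ libraries and 19.98 ± 0.922 in the DKSFM libraries. The libraries did not overlap, and the difference was under 2-fold (log2 fold change 0.38, SE 0.08, adjusted p = 0.00229 in limma).

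Enzymes that release or trim chemokines were examined next, 8 genes in all, of which 4 were tested. In 3 of the 4 the libraries of the lines did not overlap, beside 83.3% of all tested genes, but each differed by less than 2-fold and was not called. *Adam17* and *Adam10* encode the metalloproteases that shed fractalkine from the cell surface. *Adam17* had a normalized coverage of 156, 149 and 142 in the KSFM-Ca2+ libraries and 234, 240.1 and 234 in the DKSFM libraries. *Adam10* had 56.2, 51.6 and 54.3 in the KSFM-Ca2+ libraries and 83.6, 86.0 and 84.1 in the DKSFM libraries. Both were higher in every DKSFM library, by log2 fold changes of 0.66 and 0.65 (adjusted p = 9.03e-07 and 1.39e-06 in limma), less than 2-fold. *Mmp14*, which encodes a membrane-bound metalloprotease, was higher by 0.52 on the same scale (SE 0.03, adjusted p = 1.36e-06), from 103 ± 0.544 to 148 ± 4.68. *Mmp3* overlapped between the lines at 6.86 ± 0.792 and 7.22 ± 0.718. *Mmp9*, *Mmp1a* and *Ctss* stayed under the filter, at or below 0.2 as listed, and *Dpp4*, the gene of a peptidase that clips chemokine ends, was listed at 0 in every library. The sheddases of fractalkine were thus well covered in both lines, far above *Cx3cl1* itself.

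**Figure D3:**
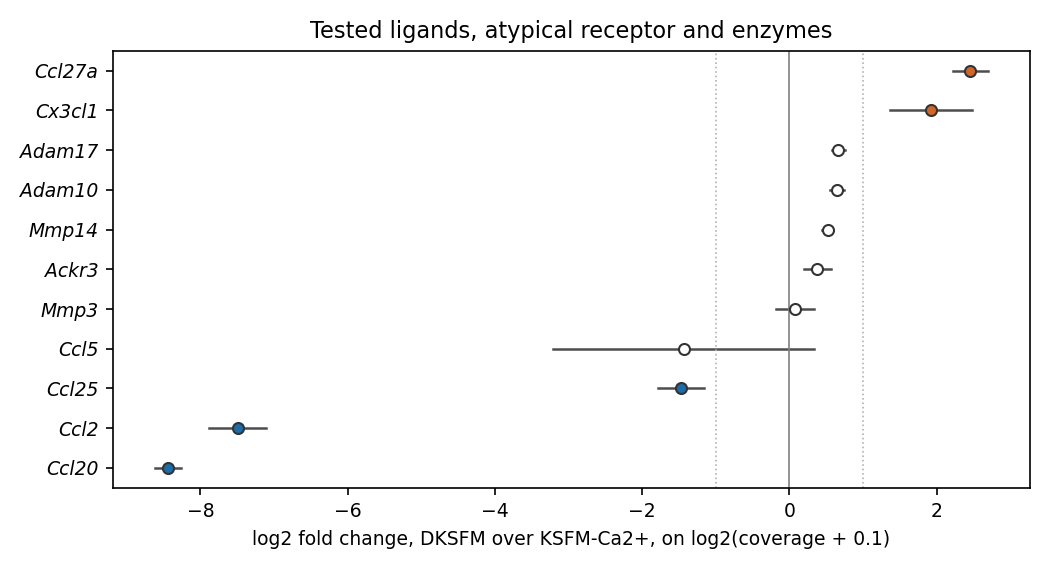
Log2 fold changes (DKSFM over KSFM-Ca2+, on log2(normalized coverage + 0.1)) with 95% intervals for the 5 tested ligands, *Ccl27a*, *Ackr3* and 4 tested enzymes. Filled points were called at an adjusted p under 0.01 in limma and 2-fold (dotted lines). Calls run from -8.44 for *Ccl20* to 2.46 for *Ccl27a*, and the interval of *Ccl5* includes 0.

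Genes of the pathways known to induce these ligands, 38 in all, covered interleukin 1, tumour necrosis factor, interleukin 17, interferon γ and interleukin 4 or 13 signalling, the epithelial cytokines and NF-κB with its inhibitors. All 38 were above 0 in at least 1 library and 35 were tested. Of these, 9 were called lower in the DKSFM cells, beside 10.5% of all tested genes, and 2 higher, beside 13.2%, and their median log2 fold change was -0.12, beside -0.0012. The 4 largest differences were all decreases. *Il1a*, the gene of interleukin 1α that epithelial cells release on damage, had a normalized coverage of 100.4, 105 and 120.5 in the KSFM-Ca2+ libraries and 0.425, 0.60 and 0.212 in the DKSFM libraries. *Tslp*, the gene of a cytokine that activates dendritic cells, had 129, 136 and 111 in the KSFM-Ca2+ libraries and 1.27, 2.90 and 1.80 in the DKSFM libraries. *Tnf*, the gene of tumour necrosis factor, had 11.7, 11.96 and 15.3 in the KSFM-Ca2+ libraries and was listed at 0 in every DKSFM library, so that it passed the filter only through the KSFM-Ca2+ libraries and had to differ. For each of these cytokines every KSFM-Ca2+ library was above every DKSFM library, with log2 fold changes of -7.80 for *Il1a* (SE 0.26, adjusted p = 4.59e-08) and -5.97 for *Tslp* (SE 0.25, adjusted p = 1.45e-07 in limma).

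*Nfkbia*, the gene of the inhibitor IκBα and itself a target of NF-κB, had a normalized coverage of 228, 242 and 236 in the KSFM-Ca2+ libraries and 46.7, 47.2 and 47.4 in the DKSFM libraries. It differed by a log2 fold change of -2.32 (SE 0.03, adjusted p = 6.56e-10 in limma), with little spread in either line. The other genes called lower were *Irf1*, *Nfkbiz*, *Tnfaip3*, *Il1rap* and *Nfkbie*, with log2 fold changes of -1.50 to -1.06. *Il13ra1* and *Tnfrsf1a*, which encode receptor chains for interleukin 13 and tumour necrosis factor, were called higher, at 1.33 and 1.04. The NF-κB subunit genes themselves were tested and not called, with log2 fold changes from -0.65 for *Nfkb2* to 0.46 for *Nfkb1*. The most abundant gene of the list over both lines, the interleukin 1 receptor kinase *Irak1*, had 199 ± 1.69 in the KSFM-Ca2+ libraries and 170.3 ± 4.74 in the DKSFM libraries. Whether the levels of these genes bear on those of the ligands was not tested.

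**Figure D4:**
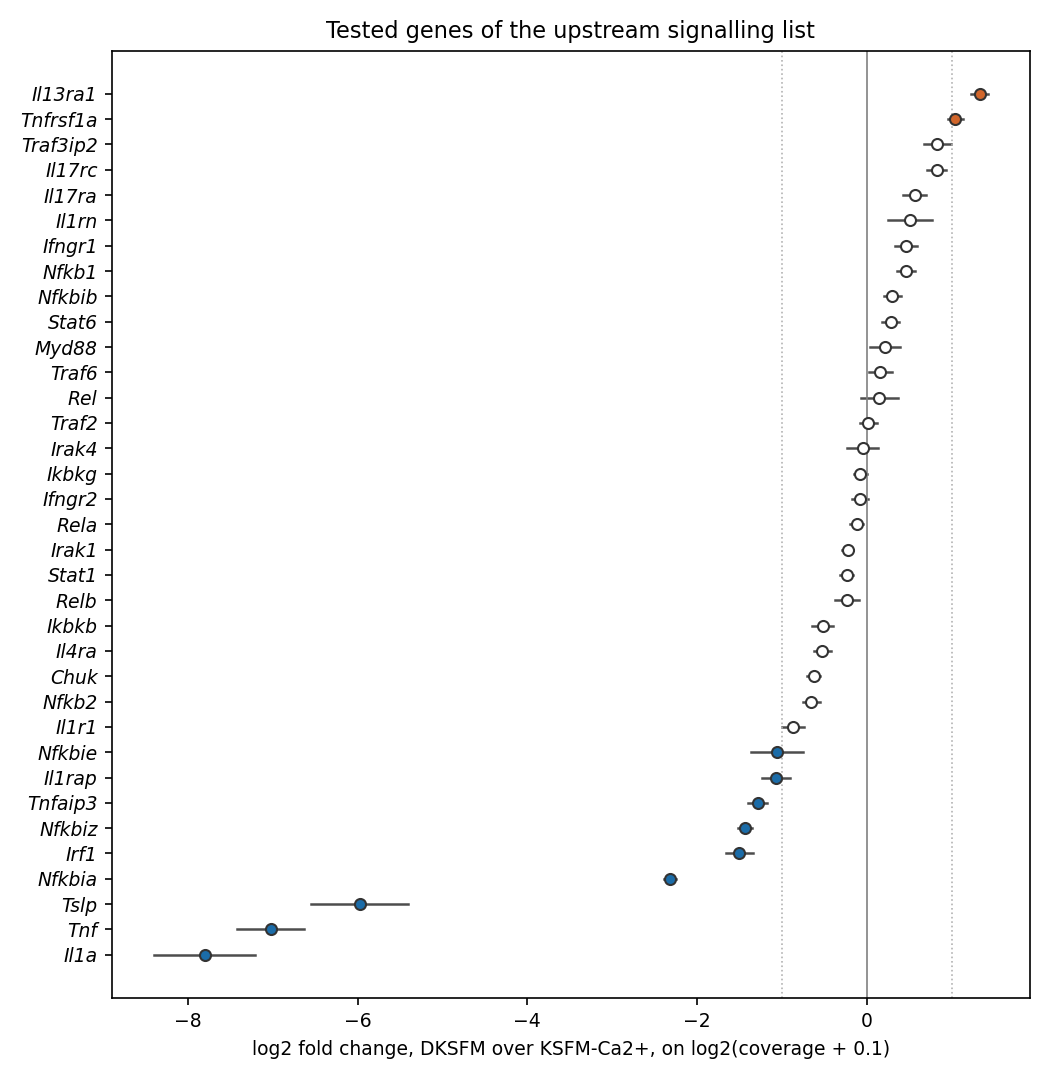
Log2 fold changes (DKSFM over KSFM-Ca2+) with 95% intervals for the 35 tested genes of the inducing pathways, with filled points for those called in limma and dotted lines at 2-fold. *Il1a*, *Tnf* and *Tslp* lie apart from the rest, between -7.80 and -5.97, and 24 genes were not called. The value of *Tnf*, listed at 0 in every DKSFM library, depends on the pseudocount.

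Markers of other skin cell types were read beside the ligands, since leukocytes and stromal cells also make them. For macrophages and other myeloid cells, 1 of 8 genes was tested, and the set summed to 11.0, 11.2 and 12.9 in the KSFM-Ca2+ libraries and to 14.5, 19.2 and 21.3 in the DKSFM libraries. Nearly all of it was *Cd68*, a lysosomal gene not restricted to macrophages, while *Adgre1* and *Tyrobp* were listed at 0 in every library and *Ptprc*, *Csf1r* and *Itgam* at 0 in every KSFM-Ca2+ library. *Lyz2* was listed at 0.1 in KSFM-Ca2+ replicates 1 and 3 and at 0 in the other libraries. *Fcer1g* stayed under the filter but was higher in every DKSFM library than in any KSFM-Ca2+ library, with means of 0.137 ± 0.0864 in the KSFM-Ca2+ libraries and 0.595 ± 0.277 in the DKSFM libraries. The set of dendritic and Langerhans cell markers summed to 268, 271 and 279 in the KSFM-Ca2+ libraries and to 97.0, 95.1 and 95.2 in the DKSFM libraries. Its most abundant gene was *Epcam*, which epithelial cells also express, and both of its tested genes of 6, *Epcam* and *Cd74*, were called lower in the DKSFM cells, where 10.5% of all tested genes were. *Cd74* had 1.22, 1.48 and 1.89 in the KSFM-Ca2+ libraries and was listed at 0 in the DKSFM libraries, so that it passed the filter only through the KSFM-Ca2+ libraries and had to differ. The defining markers *Itgax*, *Flt3* and *H2-Ab1* were listed at 0 in all libraries and *Cd207* at no more than 0.1.

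Of 5 lymphocyte markers, *Trac* was not listed under that symbol, and none of the other 4 was tested. *Cd3e*, *Cd3g* and *Nkg7* were listed at 0 in every library. The lymphocyte sums did not pass 0.106 in any library, that value being *Cd79a* in DKSFM replicate 3. The 4 mast cell markers *Kit*, *Cpa3*, *Mcpt4* and *Fcer1a* were listed at 0 throughout. Of 7 fibroblast markers only *Pdgfra* was above 0, and the sums of 1.14, 0.890 and 1.30 in the KSFM-Ca2+ libraries and 2.34, 2.10 and 2.23 in the DKSFM libraries were that gene. The 4 endothelial markers summed to 2.82, 3.16 and 3.30 in the KSFM-Ca2+ libraries and to 8.28, 8.29 and 7.42 in the DKSFM libraries. *Pecam1* made up most of this and was called higher in the DKSFM cells (log2 fold change 1.42, SE 0.10, adjusted p = 3.95e-06 in limma), while *Cdh5* was listed at 0. The 4 melanocyte markers, led by *Pmel*, summed to 0.381, 0.890 and 0.708 in the KSFM-Ca2+ libraries and to 0.318, 0.50 and 0.212 in the DKSFM libraries, and *Dct* and *Tyr* were listed at 0. The part of any of these cell types in the levels of the ligands was not tested.

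Several of the ligand genes lie together in the genome. *Ccl2* and *Ccl7* start 10.1 kb apart on chromosome 11, *Ccl5* and *Ccl3* start 119 kb apart on the same chromosome, with *Ccl5* 1495 kb from *Ccl2*, and *Ccl22*, *Cx3cl1* and *Ccl17* follow each other within 64.9 kb on chromosome 8. In this last cluster *Cx3cl1* was called higher in the DKSFM cells while *Ccl22* and *Ccl17*, 26.4 and 38.4 kb away, were listed at 0. Genes other than the 10 ligands that start within 250 kb of a ligand were examined for each. Around *Ccl2*, *Ccl7* and *Ccl20* none of the 5, 5 and 3 such genes in the tables passed the filter, so that *Ccl2* and *Ccl20* were called in surroundings with little other RNA. Within 250 kb of *Cx3cl1*, 10 of 13 neighbours were tested. Of these 1 was called lower, beside 10.5% of all tested genes, and 1 higher, beside 13.2%. They were, in that order, *Ccdc102a* (log2 fold change -1.28, SE 0.18) and *Adgrg1*, which encodes an adhesion receptor (1.66, SE 0.07). The same pair was found for *Ccl17* and *Ccl22*, whose neighbourhoods overlap that of *Cx3cl1*.

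Around *Ccl25*, 2 of 8 tested neighbours were called, *Tgfbr3l* (log2 fold change 1.33, SE 0.22) and *Evi5l* (1.08, SE 0.12). Both were higher in the DKSFM cells, where 13.2% of all tested genes were, and thus opposite to *Ccl25*. Around *Ccl3* and *Ccl5*, 3 of 6 and 4 of 10 tested neighbours were called, all higher in the DKSFM cells, where 13.2% of all tested genes were. The neighbourhoods overlap and share 3 of these genes. They were *Wfdc18* and *Wfdc17*, genes of secreted whey acidic protein domain proteins that were listed at 0 in every KSFM-Ca2+ library, and so were tested only through the line in which they were higher, and had a mean of 54.9 ± 9.15 and 1.40 ± 0.737 in the DKSFM libraries, *E230016K23Rik* (log2 fold change 1.80, SE 0.09) and, near *Ccl5* alone, *AA465934* (1.08, SE 0.22). The 7 tested neighbours of *Ccl28* differed by less than 2-fold, with log2 fold changes from -0.86 for *Nnt* to 0.57 for *4833420G17Rik*. In windows of 10 Mb to either side, the median log2 fold change of the tested genes ran from -0.56 around *Ccl17*, *Ccl22* and *Cx3cl1*, over 93 or 94 genes, to -0.08 around *Ccl28*, over 28 genes. The median over all tested genes was -0.0012.

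**Figure D5:**
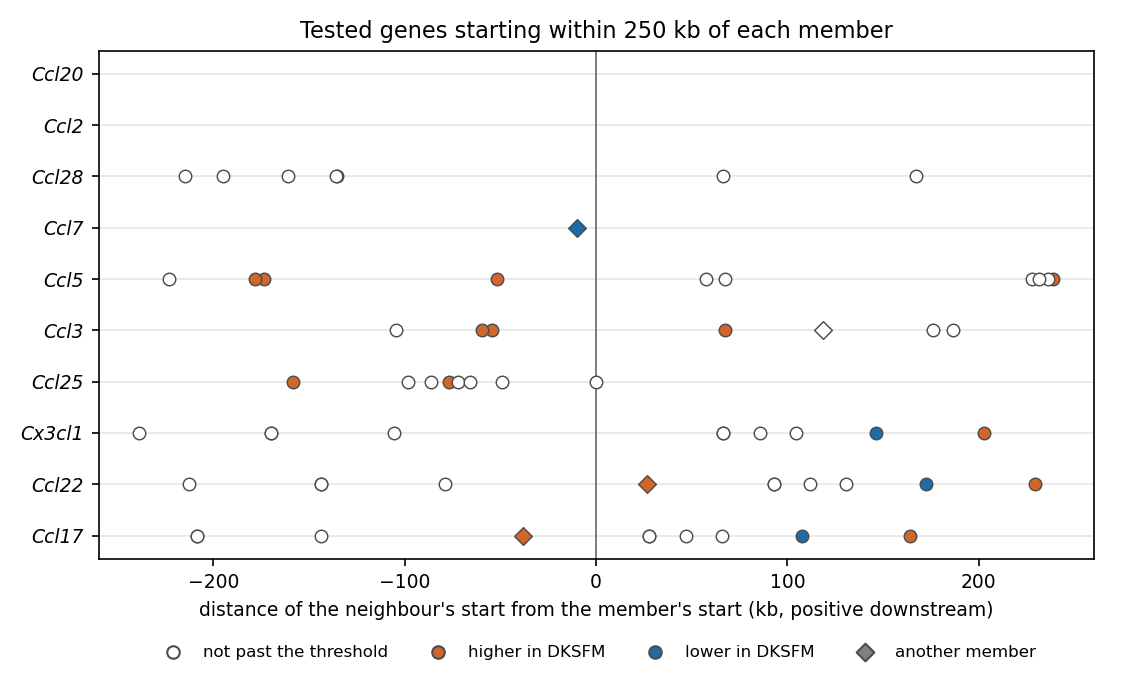
Tested genes that start within 250 kb of each ligand, by the distance of their start from that of the ligand in kb, with called genes filled (orange higher, blue lower in DKSFM) and other ligands of the 10 as diamonds. No tested neighbour lies near *Ccl2* or *Ccl20*, and the only tested neighbour of *Ccl7* is *Ccl2*.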

How the data were processed

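The 6 poly(A) RNA-seq libraries, 3 of each line, were grouped by their labels. The authors sequenced directional libraries as single 85-base reads, used STAR with the mm10 build for alignment and quantified RefSeq genes with Salmon. The deposited signal is a mean read coverage per base of each gene, rounded to 1 decimal and not scaled to library size. Neither its computation nor the mark "combined" on the tables of KSFM-Ca2+ replicate 3 and all DKSFM replicates is explained. Coverage is not a count, so the authors' DESeq2 model was not refitted.

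An unweighted trimmed mean of M values (trims of 30% and 5%) set the scale between libraries. Genes that reached 0.5 after scaling in 3 or more libraries were tested on log2(value + 0.1) with limma 3.58.1 in R 4.3.3, with an intensity trend, no covariate and two-sided p-values with Benjamini-Hochberg adjustment. Calls needed an adjusted p under 0.01 and 2-fold. The procedure was tested on simulated data. The members and gene lists were chosen with earlier results of these data known. Named were all 10 ligands, their receptors, other tested ligands and atypical receptors, all enzymes, from each other list the 4 called genes with the largest log2 fold changes and the most abundant gene, and called neighbours. Other genes were named after their values were seen. The values of 1 receptor gene are not reported here. Gene models came from GENCODE M21 (GRCm38, 24490 genes matched by symbol) and promoters from RefSeq. Coverage times median transcript length gave about 15.4 to 23.6 M reads (M, mega) per library, an approximation used in no comparison of the lines. By these reads, replicates of a line differed by a median chi-square of 0.530 to 0.880 per gene, where counting noise alone gives 0.455, and by a mean of 1.85 to 4.06, where it gives 1, and no pair held identical values. Alternatives were other pseudocounts, filters, scalings and thresholds, no trend, a replicate block, each library left out (filter in 2 libraries) and the combined libraries only (filter in 1). Plots were made with Python 3.11.15 and matplotlib 3.10.9.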

Additional observations from a re-analysis of the deposited data

How the results depend on the processing

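The calls of *Ccl2* and *Ccl20* were the same under each of the 17 and 16 alternatives that gave a value, with log2 fold changes of -7.64 to -6.80 and -8.63 to -6.48. The filter on every library removed *Ccl20*, *Cx3cl1* and *Ccl5*, so it gave no value for them, and quantile normalization removed *Ccl5*. Under that filter no ligand was called higher in the DKSFM cells (0) and 1032 genes in all were, against 1636, since fewer genes were tested. At a pseudocount of 1, *Cx3cl1* fell under 2-fold (0.84), which left 0 ligands called higher. Its adjusted p lay between 5.47e-05 and 0.00201 over all alternatives in limma. With the combined libraries only, where the lone KSFM-Ca2+ library was assumed to vary like the others, *Ccl25* had a log2 fold change of -1.50 and an adjusted p of 0.0117 with 4 libraries in place of 6, and over all alternatives its adjusted p lay between 2.74e-06 and 0.0117. Leaving out each library in turn gave -1.60 to -1.31 for *Ccl25*, 1.77 to 2.10 for *Cx3cl1* and -2.08 to -0.72 for *Ccl5*, with none of their calls changed. Over all alternatives *Ccl5* ran from -2.33 with the combined libraries only to -0.48 at a pseudocount of 1. These runs also lowered the filter to 2 libraries, and the count of ligands called lower was then 4 without KSFM-Ca2+ replicate 3, through *Ccl7*, which could not pass at 3 libraries, and 3 without any other library. With a replicate block, *Ccl5* was called at an unchanged log2 fold change of -1.44 (adjusted p = 0.00412, over alternatives 0.00412 to 0.377), while 1304 genes in all were called lower and 1641 higher. The replicate numbers do not pair the libraries: deviations of same-numbered libraries correlated at -0.01, 0.02 and -0.01 over genes, and only the libraries numbered 2 correlated best with their own number. The rounding step of 0.1 limits what can be said of ligands with a coverage under 1.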
